A study of Mus musculus with 13 samples.

Results

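The genes described here are 9 inhibitors of the cell cycle and tumor suppressors: the CIP/KIP inhibitors Cdkn1a, Cdkn1b and Cdkn1c, the INK4 inhibitors Cdkn2a, Cdkn2b, Cdkn2c and Cdkn2d, and the tumor suppressors Trp53 and Rb1. They were picked by gene symbol, as a family of known function, by a rule that uses no measured value but was written with earlier results of these data known. Of these 9 genes, 7 were among the 18562 genes named in at least 1 of 6 ChIP-seq peak lists, and Cdkn2a and Cdkn2b were named in none by symbol, older symbol or transcript. All libraries came from 4T1, a mammary tumor cell line that arose in a BALB/cJ mouse. The control cells (sg-Ctrl) carried a non-targeting guide RNA, and the knockout cells (KO) were a single clone, KO-N13, with a CRISPR/Cas9 mutation of Nup210, which encodes a transmembrane protein of the nuclear pore. Control and KO cells shared the lentiviral guide vector and puromycin selection, and Cas9 was supplied transiently by adenovirus. Whether the control cells were also a clone is not given in the sources used here, so the knockout and the choice of clone cannot be told apart. H3K4me3 and H3K27me3 were profiled in sg-Ctrl and KO cells, whereas NUP210 and several nuclear pore proteins (NPC, recognized by a pan-nucleoporin antibody) were profiled in the control only. Every condition had a single library.

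Progression through the cell cycle is driven by cyclin-dependent kinases (CDKs) bound to cyclins. INK4 proteins bind CDK4 and CDK6, CIP/KIP proteins act on a wider range of cyclin-CDK complexes, and the RB protein holds E2F transcription factors in check until it is phosphorylated by these kinases. The p53 protein, encoded by Trp53, activates Cdkn1a and other genes after DNA damage, and the ARF protein of the Cdkn2a locus stabilizes p53 by blocking MDM2. H3K4me3 marks the promoters of active genes, whereas H3K27me3 is the mark of Polycomb repression, for which the Cdkn2a-Cdkn2b locus is a well-known target.

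The promoters of these genes differ in base composition, and 7 of them are shown. At Cdkn1a they tell a start under the H3K4me3 peak from a start outside it. Each sequence is the 250 bases before a gene start, 5′ to 3′ on the strand of the gene, from RefSeq (GRCm38.p6), with motif matches in capitals. Of the 9 genes, 7 had an entry there, with 10 starts. The motifs searched on both strands were the GC box (GGGCGG), found in 32.7% of 32841 promoters, the CCAAT box (CCAAT) in 33.9% and the TATA box (TATAAA) in 12.4%. The E2F motif (TTTCGCGC, TTTGGCGC or TTTCCCGC) was found in 1.53% and the p53 half-site (RRRCWWGYYY) in 7.13%. Here R is A or G, W is A or T and Y is C or T. A half-site is a single unit and not a full p53 site. Cdkn1a has a start at each of the first pair of sequences, on the plus strand at chr17:29090729-29090978 (upstream) and chr17:29093519-29093768 (downstream). Cdkn1b lies on the plus strand at chr6:134920151-134920400 and Trp53 on the plus strand at chr11:69580109-69580358. Cdkn2c is read from the minus strand, with an upstream start at chr4:109666757-109667006 and a downstream start at chr4:109665373-109665622, and Cdkn2a, at its upstream start, from the minus strand at chr4:89294620-89294869.
Cdkn1a upstream start: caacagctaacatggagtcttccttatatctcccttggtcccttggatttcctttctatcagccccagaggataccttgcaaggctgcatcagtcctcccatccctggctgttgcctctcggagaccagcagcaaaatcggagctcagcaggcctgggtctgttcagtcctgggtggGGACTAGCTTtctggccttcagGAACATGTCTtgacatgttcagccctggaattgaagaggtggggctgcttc
Cdkn1a downstream start: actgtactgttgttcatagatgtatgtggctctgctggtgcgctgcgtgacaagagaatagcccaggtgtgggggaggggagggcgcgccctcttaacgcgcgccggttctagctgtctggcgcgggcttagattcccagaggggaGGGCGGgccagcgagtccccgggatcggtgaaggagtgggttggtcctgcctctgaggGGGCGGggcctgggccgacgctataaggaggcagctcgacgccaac
Cdkn1b: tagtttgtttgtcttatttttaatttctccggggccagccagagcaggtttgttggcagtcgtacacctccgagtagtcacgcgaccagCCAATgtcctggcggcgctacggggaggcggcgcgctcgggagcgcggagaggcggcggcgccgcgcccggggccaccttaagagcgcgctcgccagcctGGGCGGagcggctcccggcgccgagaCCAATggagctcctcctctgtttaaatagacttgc
Cdkn2c upstream start: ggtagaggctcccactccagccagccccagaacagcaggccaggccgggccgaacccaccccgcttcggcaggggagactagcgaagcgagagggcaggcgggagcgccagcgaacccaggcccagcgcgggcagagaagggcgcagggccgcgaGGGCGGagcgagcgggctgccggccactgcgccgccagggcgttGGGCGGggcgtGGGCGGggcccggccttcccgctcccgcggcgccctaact
Cdkn2c downstream start: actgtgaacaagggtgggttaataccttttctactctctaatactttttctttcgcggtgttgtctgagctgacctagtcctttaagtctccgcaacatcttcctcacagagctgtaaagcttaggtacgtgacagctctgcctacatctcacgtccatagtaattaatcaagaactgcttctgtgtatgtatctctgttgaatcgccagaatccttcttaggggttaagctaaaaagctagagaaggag
Trp53: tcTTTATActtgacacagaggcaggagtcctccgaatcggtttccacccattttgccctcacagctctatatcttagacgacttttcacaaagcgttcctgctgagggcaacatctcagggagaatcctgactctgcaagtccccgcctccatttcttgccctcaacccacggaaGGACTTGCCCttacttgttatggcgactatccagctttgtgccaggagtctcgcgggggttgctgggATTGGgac
Cdkn2a upstream start: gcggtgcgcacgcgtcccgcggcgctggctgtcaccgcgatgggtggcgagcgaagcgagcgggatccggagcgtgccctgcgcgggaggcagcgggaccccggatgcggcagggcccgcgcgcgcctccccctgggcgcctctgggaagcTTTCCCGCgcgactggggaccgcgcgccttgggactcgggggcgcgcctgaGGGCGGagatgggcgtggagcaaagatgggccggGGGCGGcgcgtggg
The upstream promoter of Cdkn1a holds 2 p53 half-sites and only 2 CpG dinucleotides, while the downstream one holds 19 CpG and 2 GC boxes. Pairs of p53 half-sites separated by at most 13 bases, as at the upstream start, occurred in 21 of all promoters (0.0639%). Only exact matches were marked. The bases directly after the second half-site miss the pattern only at their first base and stay in lower case. The Cdkn1b promoter has 28 CpG, 1 GC box and 2 CCAAT boxes, against a median of 6 CpG over all promoters. Upstream, Cdkn2c has 29 CpG and 3 GC boxes, but its downstream promoter has 6 CpG and none of the motifs, and it is this downstream start that the peak lists use as the TSS of Cdkn2c. At Trp53 there are 9 CpG, with 1 p53 half-site, 1 CCAAT box and 1 TATA box match far upstream. The upstream Cdkn2a promoter is the richest in CpG of these, with 40, at percentile 98.7 of all promoters, and has 1 E2F motif and 2 GC boxes. The downstream start of Cdkn2a, not shown, has 7 CpG, at percentile 53.7, and none of the motifs. A match is only a match of letters, and whether any factor bound these sites was not tested.

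The libraries differed in depth and enrichment. H3K4me3 peaks held 26236314 reads in the control and 24873356 in the knockout, and the KO library was 1.27 times as deep relative to IgG, while the H3K27me3 KO library was 3.16 times as deep as its control. Median folds over IgG were 49.96 and 34.6 for H3K4me3 in sg-Ctrl and KO, but only 1.19 for NUP210 and 1.10 for NPC, of whose peaks 31.0% and 48.3% had an FDR above 0.05. All 9 epithelial markers examined, among them Krt8, Epcam and Cdh1, had an H3K4me3 peak at the transcription start site (TSS) in both lists, against 1 of 6 immune, 0 of 4 endothelial and 2 of 6 fibroblast markers. The TSS peak of Nup210 itself had 885 and 913 H3K4me3 reads, which does not check the mutation, since that was made by a guide to an exon and this mark is read at the promoter. Without replicates no test of KO against sg-Ctrl was possible, and the 95% intervals below cover counting error only.

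H3K4me3 was listed within 4 kb of a TSS for 7 of the 9 genes in sg-Ctrl and for the same 7 in KO, against 54.4% of protein-coding genes in each list. A peak covered a TSS itself for 6 of the 7 in each library, all but Cdkn1c, against 92.6% of genes listed in sg-Ctrl and 92.5% in KO. Levels are given as scaled reads per kb, the ChIP reads of the TSS peak divided by its width and by the library size relative to IgG, and ratios are KO over sg-Ctrl on the log2 scale. In sg-Ctrl cells the order from high to low was Cdkn2c, Cdkn1b, Trp53, Cdkn2d, Rb1, Cdkn1a and Cdkn1c, around a median of 543 scaled reads per kb over all 12197 genes with a peak in both lists. In KO cells Trp53 stood first, followed by Cdkn2c, Cdkn2d, Cdkn1b, Cdkn1a, Rb1 and Cdkn1c, around a median of 382. Of neighbours in these orders, only Rb1 and Cdkn1a in sg-Ctrl had intervals that overlapped, at their edges, from 326 to 366 and from 292 to 326. At least 2-fold lower H3K4me3 in the KO library was found for 2 of the 7 genes, Cdkn1b and Cdkn2c, against 9.66% of all genes, and none was at least 2-fold higher, against 0.525%. The median ratio of the 7 genes was -0.41 and that of all genes -0.50, so the KO library was lower for most genes (88.7% were below 0).

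**Figure D1:**
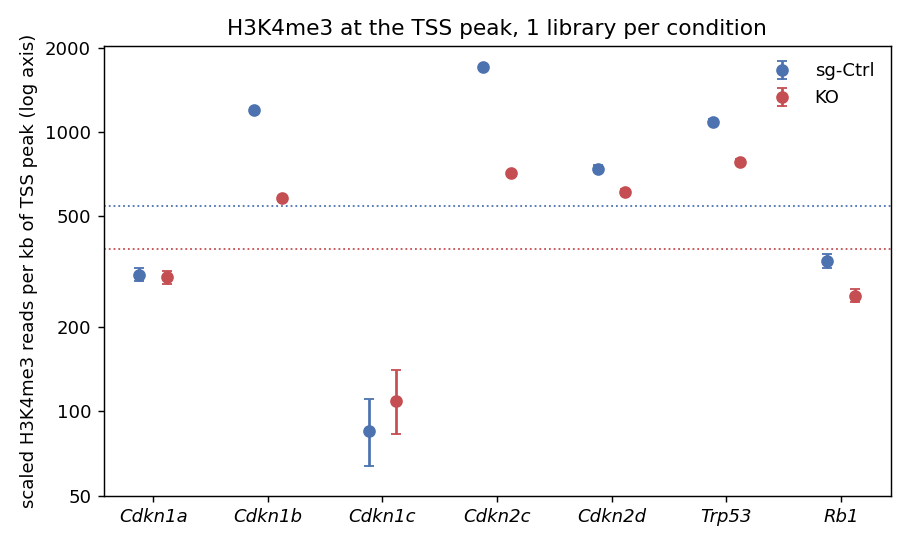
Scaled H3K4me3 reads per kb of the TSS peak (log axis) for the 7 listed genes in sg-Ctrl (blue) and KO (red), with 95% Poisson intervals, 1 library each; dotted lines are the medians of all genes. Cdkn2c and Cdkn1b show the widest gaps, from 1702 to 710 and from 1201 to 579, while Cdkn1a sits at 309 and 302.

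Among the CIP/KIP genes, Cdkn1b stood apart from Cdkn1a and Cdkn1c in level, width and ratio. Cdkn1b encodes p27, which inhibits CDK2 complexes and holds cells in quiescence. Its peak held 24464 reads over 19.2 kb in sg-Ctrl and 16850 reads over 21.6 kb in KO, or 1201 and 579 scaled reads per kb. The log2 ratio was -1.05 (interval -1.08 to -1.02), a 2.07-fold lower level in KO. The KO peak began 7.2 kb upstream of the TSS and the sg-Ctrl peak 4.4 kb, so part of the lower density came with a wider peak, and by total scaled reads the ratio was -0.88. The peak also spans the start of 1190002F15Rik, a long non-coding RNA gene just downstream, and cannot be divided between both genes. Of the 8 listed neighbours within 200 kb with a TSS peak in both lists, all were below 0 by density, as were 88.7% of all genes. Only the gene sharing the peak reached a 2-fold lower level. By total scaled reads 7 of the 8 were below 0. There the only neighbour past 2-fold was Dusp16, at -1.07, while the gene sharing the peak was at -0.88.

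Cdkn1a encodes p21, the inhibitor induced by p53. Its peak held 1311 reads over 4 kb in sg-Ctrl and 1220 over 3 kb in KO, with levels of 309 and 302 scaled reads per kb and a ratio of -0.03 (interval -0.15 to 0.08). The difference in density was within counting error, while total scaled reads were lower in KO, at -0.45, with a narrower peak. The peak covered the downstream start, whose GC-rich promoter is shown above and lay wholly inside it. The upstream start, with the p53 half-sites, lay outside, 2215 bp from the peak in sg-Ctrl and 2415 bp in KO. By density all 5 listed neighbours were below 0, as were 88.7% of all genes, and below Cdkn1a, from -1.04 at Kctd20 to -0.46 at Ppil1. By total scaled reads this order did not hold, since Stk38 was at -0.30 and Ppil1 at 0.016.

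Cdkn1c encodes p57, an imprinted inhibitor expressed from the maternal chromosome. It had the weakest signal of the 7 genes, with 54 reads over 0.6 kb in sg-Ctrl and 59 over 0.4 kb in KO, or 84.8 and 109 scaled reads per kb. The ratio was 0.37 with an interval from -0.19 to 0.93, so no difference was detectable at this depth. The peak lay 2351 bp upstream of the TSS in sg-Ctrl and 2551 bp in KO, and the peak used for 9.73% and 9.5% of listed genes likewise left the TSS uncovered. The same IgG sample served both H3K4me3 lists, and it had 11 reads in the sg-Ctrl peak. The KO peak, narrower and inside that one, held 0 IgG reads, so its deposited fold of 175 rests on a substitute of 0.25 IgG reads. Kcnq1ot1, the non-coding RNA that silences this imprinted domain on the paternal chromosome, had 2782 reads in sg-Ctrl and 1101 in KO, with a ratio of -1.37. Phlda2, another imprinted gene of the domain, was at -0.29. Slc22a18 and Kcnq1 had a TSS peak in the KO list alone, of 103 and 61 reads.

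**Figure D2:**
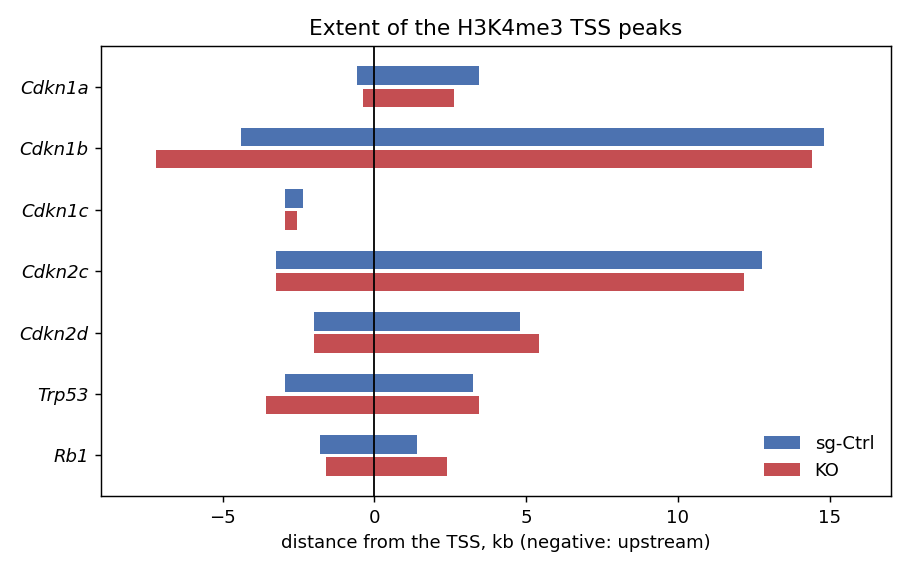
Extent of the H3K4me3 TSS peak of each gene relative to the TSS (0, downstream to the right, in kb; the downstream start for Cdkn1a) in sg-Ctrl (blue) and KO (red). The sg-Ctrl peaks of Cdkn1b and Cdkn2c reach 14.8 and 12.8 kb downstream, and the Cdkn1c peak lies upstream of the TSS.

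The INK4 genes fell into a pair with strong H3K4me3 and a pair with no entry in any list. Cdkn2c encodes p18, an inhibitor of CDK4 and CDK6. Its peak had 28887 reads over 16 kb in sg-Ctrl and 14737 over 15.4 kb in KO, or 1702 and 710 scaled reads per kb. The ratio was -1.26 (interval -1.29 to -1.23), a 2.40-fold lower level in KO, and total scaled reads gave -1.32. In sg-Ctrl its level was at percentile 99.6 of all genes and its width at percentile 99.5, and in KO its level was at percentile 95.3. Both starts shown above lay inside the peak in both libraries. The neighbouring genes Faf1, which encodes an apoptosis-associated ubiquitin-binding factor, and Rnf11 were lower in KO as well, at -1.28 and -1.07. Chromosome 4, which carries Cdkn2c, had a median ratio of -0.72, and 23.4% of its 774 genes were at least 2-fold lower, so the distance of Cdkn2c from its chromosome was -0.54. The part of the chromosome in this ratio was not tested.

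Cdkn2d encodes p19 of the INK4 family, which is distinct from the ARF protein of Cdkn2a. It had 5334 reads over 6.8 kb in sg-Ctrl and 6090 over 7.4 kb in KO, with levels of 739 and 611 and a ratio of -0.28 (interval -0.33 to -0.22). This was above the median of all genes. Of its 13 neighbours with a peak in both lists none was 2-fold lower by density, against 9.66% of all genes. None was 2-fold lower by total scaled reads either. The peak is shared with Kri1, a gene for ribosome biogenesis, so the value belongs to both genes.

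Cdkn2a and Cdkn2b, which encode p16, ARF and p15, had no listed H3K4me3, H3K27me3, NUP210 or NPC peak, as was so for 21.4% of protein-coding genes. The lists name only genes that meet a peak, so no read count or upper limit can be given for either gene. Both lay in a stretch of chromosome 4 without a listed peak of any kind, from 89149401 to 89619000, or 470 kb, with no other protein-coding gene inside. Cdkn2a was 125 kb and Cdkn2b 157 kb from the nearest listed peak, that of Mtap, and 4.50% of protein-coding genes were at least as far as Cdkn2a from any listed peak. Both Cdkn2a promoters, the CpG-rich upstream one printed above included, thus had 0 bases in a peak. Mtap, a methylthioadenosine phosphorylase gene next to the locus, had 9776 reads over 14 kb in sg-Ctrl and 4719 over 7.8 kb in KO, with a ratio of -0.55 by density and -1.40 by total scaled reads. Gm12603, a non-coding RNA gene further along, had the lowest neighbour ratio at -1.76. Whether the locus is present in these cells was not tested.

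Trp53 and Rb1 were both near the median of all genes in their ratio. 4T1 is commonly described as lacking functional p53, and the peak lists do not bear on the protein. Trp53 had 7157 reads over 6.2 kb in sg-Ctrl and 7364 over 7 kb in KO, or 1088 and 781 scaled reads per kb, with a ratio of -0.48 (interval -0.53 to -0.43). This placed it 0.02 above the median of all genes, and its level was at percentile 94.3 in sg-Ctrl and 97.5 in KO. The peak also covers the start of Wrap53, which is read in the opposite direction from the same region. Of 21 neighbours within 200 kb, 5 were at least 2-fold lower by density, against 9.66% of all genes and 7.09% on chromosome 11. Among them was Polr2a, the gene of the largest subunit of RNA polymerase II, at -1.56. Several of the neighbours share a peak with each other, and among those 5 Polr2a does so with Slc35g3 and Shbg with Sat2. By total scaled reads 0 of the 21 were at least 2-fold lower, and Polr2a was at -0.73.

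Rb1 had 1173 reads over 3.2 kb in sg-Ctrl and 1401 over 4 kb in KO, or 346 and 260 scaled reads per kb, with a ratio of -0.41 (interval -0.52 to -0.30). Reads of the same IgG sample numbered 28 in the sg-Ctrl peak and 56 in the wider KO peak. By the deposited fold over IgG the ratio was therefore -1.09. Rb1 encodes the retinoblastoma protein and is by far the longest of the 9 genes, at 133 kb in RefSeq and 130 kb in the peak lists. Lpar6, a lysophosphatidic acid receptor gene inside an intron of Rb1, had its own H3K4me3 peak, with 12092 reads in sg-Ctrl and 6005 in KO, levels of 1295 and 743 and a ratio of -0.80 by density and -1.36 by total scaled reads. The listed genes around Rb1, Lpar6 included, ranged from -0.99 to -0.57. By density none of the 5 was 2-fold lower, against 9.66% of all genes.

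**Figure D3:**
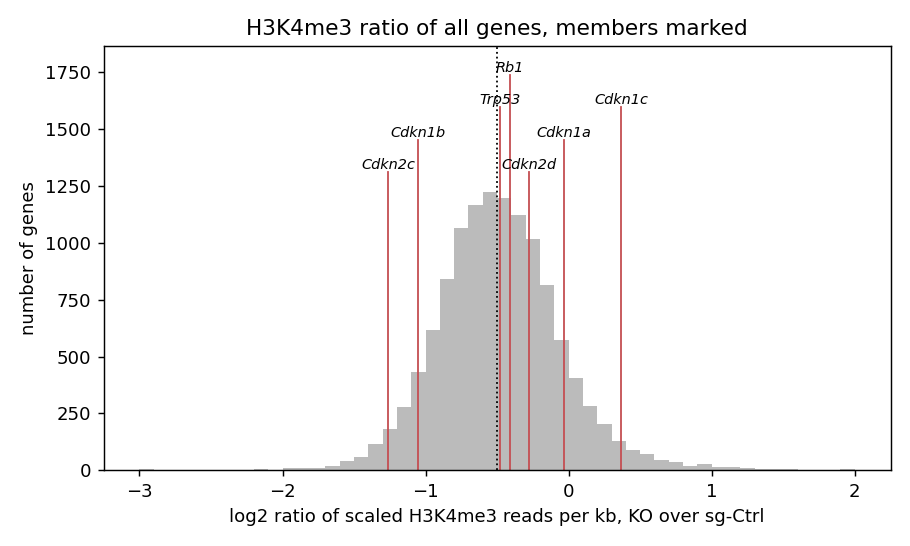
Number of genes (y axis) by log2 ratio of scaled H3K4me3 reads per kb, KO over sg-Ctrl (x axis), for 12197 genes, with the 7 listed genes as red lines and the median of all genes, -0.50, dotted. Cdkn2c and Cdkn1b lie in the lower tail and the other 5 genes at or above the median.

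Another scaling shifts all ratios alike and leaves their order. Scaling by the reads of peaks shared by both lists moved every ratio up by 0.42, which put the median of all genes at -0.08 and that of the 7 genes at 0.011. Under it Cdkn1b was at -0.63 and Cdkn2c at -0.84, none of the 7 was at least 2-fold lower, against 1.25% of all genes, and 3 were below 0. Relative to the median of all genes, Cdkn1b was at -0.55 and Cdkn2c at -0.76, none of the 7 was past 2-fold, against 0.926% of genes, and 5 were above it. The direction of the absolute ratio is therefore set by the scaling for Cdkn1a, Cdkn2d and Rb1, but Cdkn1b and Cdkn2c were below 0 under both scalings. Their place below the other members is the same under both by construction.

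Cdkn1b and Cdkn2c were also the members with the widest peaks. Their widths were at percentiles 99.8 and 99.5 of all genes in sg-Ctrl, where the median was 3.6 kb. Of 74 genes with a peak of 15 kb or more, 16 were at least 2-fold lower in KO (21.6%, Wilson interval 13.8 to 32.3), with a median ratio of -0.70. Both members, and 1190002F15Rik, which shares the Cdkn1b peak, are counted in the 74 and in the 16. The interval treats genes that share a peak as separate. Genes with peaks of 2 to 4 kb, such as Rb1, were 2-fold lower in 10.6% of cases, and those of 6 to 10 kb, such as Trp53 and Cdkn2d, in 9.19%. The part of peak width in the ratios of Cdkn1b and Cdkn2c was not tested.

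**Figure D4:**
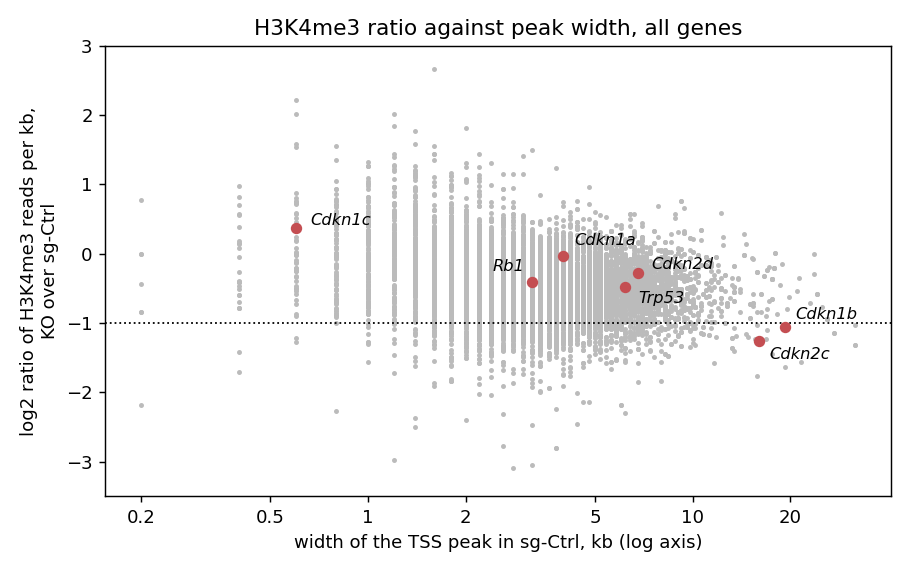
Log2 ratio of H3K4me3 (y axis, KO over sg-Ctrl) against the width of the TSS peak in sg-Ctrl (x axis, kb, log axis) for all genes (grey, 1 beyond the axis) and the 7 listed genes (red); the dotted line is a 2-fold lower level. Cdkn1b and Cdkn2c lie at 19.2 and 16 kb, at or under that line.

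No H3K27me3 peak met the body of any of the 9 genes, in sg-Ctrl or in KO, against 20.2% and 20.8% of protein-coding genes. Among genes with H3K4me3 at the TSS in both lists, 5.46% and 4.3% had one. The nearest listed H3K27me3 peak in sg-Ctrl was 102 kb from Cdkn1c, at Kcnq1, and in KO it was 208 kb away. For Cdkn2a the nearest was at Dmrta1, 324 kb away in sg-Ctrl and 395 kb in KO. For Cdkn2b it was 308 kb and 379 kb away, for Trp53 359 kb and 383 kb, and for Cdkn1a 433 kb and 432 kb. The distance was larger in KO for Cdkn1b, at 184 kb and 808 kb, and for Cdkn2c, at 126 kb and 534 kb. For Cdkn2d it was smaller in KO, at 902 kb and 490 kb. Rb1 was at 138 kb and 204 kb, the shortest distance of the members in KO. The distances count only peaks on gene bodies, since the lists hold no others.

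NUP210 and NPC peaks met 1 of the 9 genes, Rb1, against 26.7% and 24.3% of protein-coding genes. Genes of at least 100 kb were listed in 61.6% and 57.6% of cases, and Rb1 is the only such gene among the 9. A NUP210 peak of 91 kb held 2279 reads against 1954 IgG reads, a fold over IgG of 1.15 with an FDR of 6.3e-11. A second, of 27 kb, held 710 against 677 reads, a fold of 1.04 with an FDR of 0.20. Both were faint, and together they covered 90.6% of the gene. The NPC peaks of 61 and 15 kb had folds of 1.15 and 1.13, with FDRs of 4.7e-07 and 0.023, and covered 58.3%. The TSS of Rb1 with its H3K4me3 peak lay outside all 4, apart from an overlap of the longer NUP210 peak with the KO H3K4me3 peak. No NUP210 peak met Cdkn2c, and the nearest lay 3.25 kb away on Faf1. Faf1 is itself longer than 100 kb and had 9 listed NUP210 peaks. The fold and FDR of the nearest one are not given here.

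**Figure D5:**
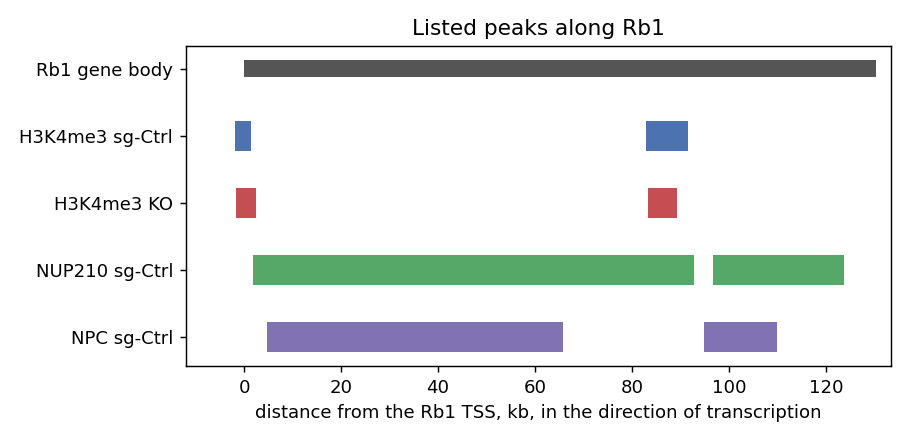
Listed peaks along Rb1 in kb from its TSS in the direction of transcription: gene body (grey), H3K4me3 in sg-Ctrl (blue) and KO (red), NUP210 (green) and NPC (purple) in sg-Ctrl. NUP210 and NPC peaks fill most of the body from 1.79 kb onward, and the H3K4me3 peaks near 83 kb belong to Lpar6.

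The partners of these genes were read from lists of the pathway, by density unless stated. These counts moved with the measure, and several of the TSS peaks had another width in KO. Of 13 CDKs and cyclins, 12 had a TSS peak in both lists, 1 was at least 2-fold lower in KO and none higher, with a median of -0.36. That gene was the mitotic cyclin gene Ccnb2, at -1.25, but at -0.30 by total scaled reads, and the count was 0 by total reads and with shared-peak scaling. Ccne1, whose protein activates CDK2, was at 0.47. All 12 relatives of RB and E2F factors had a peak in both lists and none passed 2-fold, with a median of -0.40, while 2 did by the fold over IgG. Rbl1 and Rbl2, which encode the pocket proteins p107 and p130, were at -0.98 and -0.87, and at -0.51 and -0.15 by total scaled reads.

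Of 11 regulators and relatives of p53, 10 had a peak in both lists and 3 were at least 2-fold lower, the checkpoint kinase genes Chek1 at -1.63 and Chek2 at -1.16 and the p53 antagonist Mdm4 at -1.01. By total scaled reads none was (0), with Chek1 at -0.070, Chek2 at -0.81 and Mdm4 at -0.52, and the count was 1 with shared-peak scaling and 5 by the fold over IgG. The Chek1 peak was 4200 bp wide in sg-Ctrl and 12400 bp in KO. Mdm2, the ubiquitin ligase of p53, was at -0.46, close to Trp53 itself.

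Of 20 p53 target genes, 18 had a peak in both lists, with a median of -0.24, and 1 was at least 2-fold lower, Ccng1 at -1.30. Its direction turned by total scaled reads, to 0.16, with a peak of 2400 bp in sg-Ctrl and 6600 bp in KO. By total reads the single gene past 2-fold was instead Perp, at -1.10, which by density was at 0.13. Fas, a death receptor gene, was at 0.18. Among 19 other tumor suppressors 18 had a peak in both lists, the median was -0.62 and 1 was 2-fold lower, Smad4 at -1.44, which was also past 2-fold by total reads, at -1.33, and with shared-peak scaling, at -1.02. By total reads the count was 4, with Apc, Lats2 and Arid1a, and by the fold over IgG it was 3. All 11 Polycomb and trithorax regulators had a peak in both lists, and 1 was 2-fold lower, Suz12, a core subunit of the complex that writes H3K27me3, at -1.25. Suz12 was at -1.14 by total reads, where Cbx7 passed as well, at -1.05, and the list's count was 3 by the fold over IgG and 0 with shared-peak scaling. The shares by density stand beside the 9.66% of all genes, and with so few genes per list they are descriptions only.

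H3K27me3 was listed in sg-Ctrl alone for Ccnd2, a D-type cyclin gene, with a fold over IgG of 8.25 over 3.05 kb, for the pro-apoptotic gene Pmaip1, with a fold of 1.78 over 5.56 kb, and for the Polycomb gene Bmi1, over 1 kb. These peaks held 454, 170 and 86 reads. No gene of the pathway lists had H3K27me3 in KO alone. Among the cell type markers, the endothelial genes Cdh5 and Kdr were listed in KO alone, each over 9 kb, with folds of 5.22 and 2.17. The epithelial marker Esrp1 was listed in sg-Ctrl alone, over 4.78 kb with a fold of 2.93. Among protein-coding genes 20.2% were listed in sg-Ctrl and 20.8% in KO, and the share listed in sg-Ctrl alone was not computed. The KO library was 3.16 times as deep, and a loss of the mark in KO was not tested.

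The genes with the values most like those of each member over the 6 libraries were found by Euclidean distance on standardized values. A distance of 0 came from shared peaks, for 1190002F15Rik with Cdkn1b, Kri1 with Cdkn2d and Wrap53 with Trp53. Next to these were Rps12 for Cdkn1b (distance 0.017), Isca2 for Trp53 (0.021) and 4930451G09Rik for Cdkn2d (0.0059). Cdkn1a was nearest to Gramd4 (0.013) and Cdkn2c to Tlr6 (0.048), whereas for Cdkn1c it was Nxph3 (0.079). These members had no part of the gene body covered by H3K27me3, NUP210 or NPC peaks, so beyond that shared absence they were matched on H3K4me3. Rb1, the member with NUP210 and NPC peaks, had no gene within 0.1, and its nearest was Mkln1 at 0.28. Its covered shares of 90.6% and 58.3% had to be matched as well, so its distance is not comparable with the others.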

How the data were processed

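The data were 6 ChIP-seq peak lists from 4T1 cells, each from a single library. The authors called peaks with SICER against IgG, using 200 bp windows for H3K4me3 and windows of 1000 bp for H3K27me3 and NUP210. For each peak the authors deposited raw counts of ChIP and IgG reads, a p-value with its FDR, a fold over IgG (a ratio scaled by library size) and the overlap with the gene in bp. Folds without IgG reads use 0.25. Per the labels, Trimmomatic, Bowtie2, STAR and Picard were among the tools. The labels name several builds, and member starts in the lists lay at or near those of GRCm38.p6. RNA-seq (4 samples) was not analysed, and IgG (3 samples) entered only by way of the lists.

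Entries repeating a peak were merged. The library size relative to IgG was recovered from counts and folds, and reads per kb of the TSS peak (the densest where a gene had several) were divided by it. Intervals are exact Poisson for reads, exact conditional binomial for ratios and Wilson for shares, at 95%. No test over replicates was possible. Backgrounds over protein-coding genes were matched to RefSeq by transcript. The lists used older symbols for Kmt2a and Tigar. Neighbours are listed genes within 200 kb. Genes named from the pathway lists are up to 2 per direction by ratio relative to the median of all genes (100 reads or more in either library), those past 2-fold, and those with H3K27me3 in 1 list. Likeness used log2 H3K4me3 levels and covered shares of the gene body. The members, lists and comparisons were chosen with earlier results of these data known. The steps were tested on simulated data, in which peak widths were equal in both conditions. The simulation therefore does not check ratios of peaks whose width changed. Versions were scipy 1.17.1, pandas 2.3.3, numpy 2.4.6, matplotlib 3.10.9 and Python 3.11.15.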

Additional observations from a re-analysis of the deposited data

How the results depend on the processing

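No paired analysis was possible because each ChIP-seq condition has 1 library, and for the same reason no library could be left out in turn. The median H3K4me3 ratio of the members, -0.41, became 0.011 when scaled by reads of shared peaks, -0.066 without scaling, -0.30 by total scaled reads and -0.30 by the deposited fold over IgG. The number of members at least 2-fold lower in KO, 2, became 0 with shared-peak scaling, 0 without scaling, 1 by total reads and 3 by the fold over IgG, with Rb1 added. The number at least 2-fold higher, 0, became 1 by the fold over IgG, for Cdkn1c, where the narrower KO peak held no IgG reads. Cdkn2d was at 0.15 with shared-peak scaling and 0.069 without scaling, and Rb1 at 0.011 with shared-peak scaling, against negative ratios in the text. Cdkn1b ranged from -1.14 to -0.63 and Cdkn2c from -1.32 to -0.84 over the 6 alternatives. With a fold of at least 2 no member had a NUP210 peak (0) or an NPC peak (0). The counts of 2-fold lower genes in the pathway lists moved from 0 to 2 for CDKs and cyclins, 0 to 5 for regulators of p53, 1 to 4 for other tumor suppressors and 0 to 3 for Polycomb and trithorax regulators. Choosing the peak nearest the TSS, or only peaks passing both an FDR of 0.01 and a fold of 2, left the median and both counts of members past 2-fold as they were. Among the members with an H3K4me3 peak only Cdkn1c had under 100 reads in each library. For Cdkn2a and Cdkn2b, and for marks without a listed peak, no read count was available, so a limit from depth cannot be judged there. Peaks away from genes and starts were not analysed here.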
